A study of Mus musculus with 15 samples.

Results

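Riebeckite cleavage fragments, the non-asbestiform habit of a sodium-rich amphibole mineral, were compared with no exposure in MPI cells, a self-renewing line of mouse macrophages that serves as a model of the alveolar macrophage. The comparison holds 6 of the 15 libraries of the series, chosen by their labels: 3 from cells exposed to 40 µg/cm2 of riebeckite cleavage fragments for 24 h and 3 from untreated cells, whose labels give no agent, although a description shared by all samples speaks of a vehicle control. The same fragments were also set against 3 libraries of riebeckite asbestos (9 µg/cm2) and 3 of tremolite cleavage fragments (60 µg/cm2), doses that the labels describe as equal in particle surface area. All cells carried the C57BL6/J background, came from female fetal liver and grew in medium with 30 ng/ml of the growth factor GM-CSF, so the untreated cells received it too. The line is not a lung isolate, and nothing in the labels tells if the 3 libraries of each group are 3 cultures. The p-values therefore reflect only how much these libraries vary, which may be technical.

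Alveolar macrophages take up inhaled particles through scavenger and other phagocytic receptors and carry them to lysosomes, where acid hydrolases and a proton-pumping ATPase do the digestive work. Iron-bearing mineral surfaces can generate oxidants, and cells answer oxidants through the transcription factor Nrf2, which binds antioxidant response elements. Particles that damage the lysosome can release interleukin-1 cytokines through the inflammasome, and macrophages also secrete matrix proteins, proteases and growth factors that reach neighbouring cells.

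Gene levels were the authors' deposited FPKM (fragments per kilobase of transcript, scaled to the total mapped in a library), given for 10653 protein-coding genes whose highest group mean was at least 0.5003 FPKM. Of these, 10616 reached 0.5 FPKM in at least 3 of the 15 libraries and were tested on log2(FPKM + 1) with limma, at a Benjamini-Hochberg adjusted p of 0.05. Differences are riebeckite fragments minus the other group on that scale, where the added 1 shrinks the differences of weakly expressed genes. Read depth is unknown, a level in FPKM depends on all other RNA in its library, and in bulk RNA fewer cells of a type and less RNA per cell cannot be told apart. Libraries of the same group had Spearman's rho across genes of 0.9877 to 0.99 for riebeckite fragments and 0.9904 to 0.9918 for untreated cells, and libraries of different groups had 0.9693 to 0.9733. The macrophage identity of the cells was seen in both groups. Alveolar macrophage markers summed to 13530 to 14520 FPKM in the fragment libraries and 12550 to 13340 FPKM in untreated libraries, of 35 markers in the table. No lymphocyte marker of 14 listed was among the genes analysed.

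The transcriptome moved broadly and mostly by small amounts. Riebeckite fragments raised 1626 genes (15.3% of those tested) and lowered 2447 (23.1%), 38.4% in either direction. Levels in the 3 fragment and 3 untreated libraries did not overlap for 49.1% of genes, 19.2% higher and 29.9% lower. Among called genes 80.1% differed by less than 0.5 on the log2 scale, whereas 131 were at least 1 higher (1.23% of genes) and 58 at least 1 lower (0.546%). Differences of at least 2 numbered 16 upward and 3 downward. The median over all genes was -0.04. Counts of list members against untreated cells, given below, are to be set beside the 15.3% higher and 23.1% lower of all genes. The excess of falls depended on the scaling: rises made up 39.9% of called genes as deposited, 51.2% after TMM rescaling, which sets libraries to a trimmed mean of gene ratios (1995 higher, 1899 lower) and 44.1% after quantile normalization (1771 higher, 2243 lower).

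**Figure D1:**
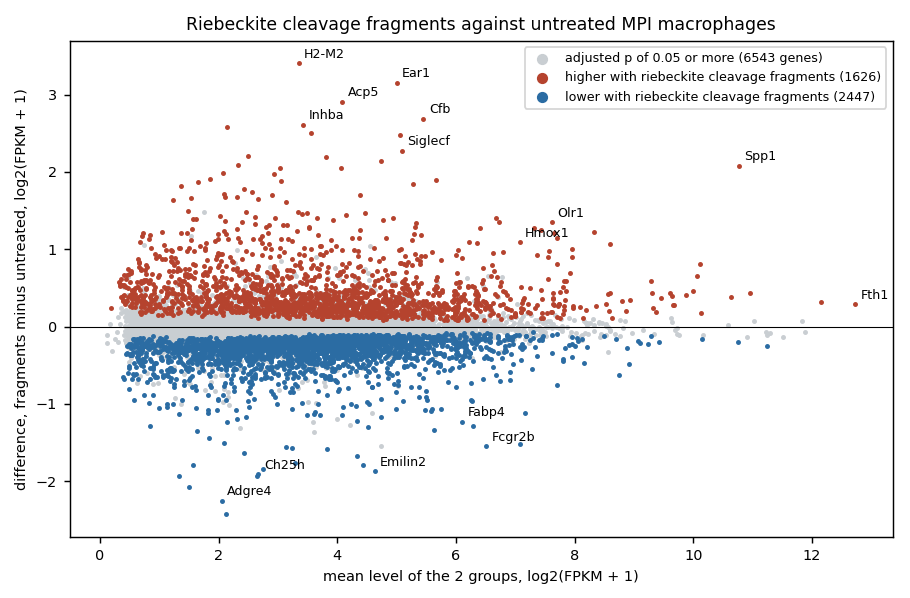
Difference in gene level between riebeckite cleavage fragments and untreated cells (vertical axis, log2(FPKM + 1)) against the mean level of both groups (horizontal axis, same scale), one point per gene tested. Red points are the 1626 genes higher with fragments, blue points the 2447 lower, grey points those not called, with the differences of 3.41 for H2-M2 and -2.25 for Adgre4 near the ends of the range.

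The largest rises included genes of secreted proteins, surface receptors and a keratin. H2-M2, of the non-classical class I antigen genes, stood at 17, 16.8 and 19.1 FPKM in the fragment libraries, against 0.778, 0.7005 and 0.789 FPKM in untreated libraries (difference 3.41, SE 0.0797, limma adjusted p = 2.26e-11). Ear1, an eosinophil-associated ribonuclease gene (chromosome 14, 43818765 to 43875517, GRCm38), stood at 52.8, 54.5 and 62.5 FPKM in the fragment libraries, against 5.76, 4.94 and 5.66 FPKM in untreated libraries (difference 3.16, SE 0.0947). Its relative Ear6 had 55.1, 54.2 and 57.8 FPKM with fragments and 9.4, 9.01 and 8.98 FPKM without (difference 2.48, SE 0.0674). The largest rises and falls were chosen among genes whose fragment and untreated libraries do not overlap, so that separation is no further result. Reads of the near-identical Ear genes can be split uncertainly.

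The alternative pathway of complement was represented by a large rise. Cfb, complement factor B, which forms the catalytic part of the pathway's convertase (chromosome 17, 34856374 to 34862518), reached 70.2, 82.2 and 72 FPKM in fragment libraries, against 9.67, 11.3 and 11.3 FPKM in untreated libraries (difference 2.69, SE 0.0884, limma adjusted p = 1.73e-10). The lowest fragment library stood at 70.2 FPKM and the highest untreated one at 11.3 FPKM, in a gene chosen for lack of overlap.

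Acp5, tartrate-resistant acid phosphatase, had 28, 28.4 and 30.4 FPKM in the fragment libraries and 3.17, 3.08 and 2.72 FPKM in untreated libraries (difference 2.91, SE 0.0836). Inhba, which encodes the activin A subunit, had 18.2, 17 and 17.4 FPKM with fragments and 2.09, 1.75 and 2.24 FPKM without (difference 2.61). Spp1, osteopontin (chromosome 5, 104435118 to 104441050), was the most abundant of the 15, at 2904, 2846 and 2713 FPKM with fragments and 702, 665 and 631 FPKM without (difference 2.08, SE 0.0477, limma adjusted p = 2.26e-11). It made up 1.05 ± 0.0149% of summed FPKM in the fragment libraries and 0.256 ± 0.0113% in untreated libraries (SD, n = 3 each).

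The remaining large rises included Krt79, a keratin gene also found in alveolar macrophages, at 6.33, 6.25 and 7.09 FPKM with fragments and 0.233, 0.261 and 0.272 FPKM without (difference 2.59). Hp, the hemoglobin-binding protein haptoglobin, had 21.7, 22.4 and 21.7 FPKM with fragments and 3.96, 3.59 and 4.48 FPKM without (difference 2.20). The gap between the groups was wide for both, among genes chosen for lack of overlap. Further rises among the 15 largest were Cxcr2 (2.51), the lectin gene Siglecf (2.27), the acyltransferase gene Awat1 (2.14), the podoplanin gene Pdpn (2.09) and the betaine transporter gene Slc6a12 (2.06).

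The largest falls included surface receptors and regulators of transcription and the cell cycle. Adgre4, an adhesion receptor of monocytes and macrophages, had 0.538, 0.412 and 0.355 FPKM in the fragment libraries and 5.48, 5.47 and 6.6 FPKM in untreated libraries (difference -2.25, SE 0.102, limma adjusted p = 2.56e-09). Ifitm6, an interferon-induced transmembrane protein gene, was listed at 0.111, 0 and 0.124 FPKM with fragments and 3.8, 3.85 and 3.03 FPKM without (difference -2.08). The falls, too, were chosen for lack of overlap, and the gap was wide for both genes.

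Ch25h, cholesterol hydroxylase, had 1.47, 1.53 and 2.04 FPKM in the fragment libraries and 9.53, 8.76 and 8.86 FPKM in untreated libraries (difference -1.91). Klf2, a transcription factor that holds back macrophage activation, had 4.18, 2.78 and 3.42 FPKM with fragments and 13.9, 13.9 and 14.1 FPKM without (difference -1.76). Ccnd1, cyclin D1, which drives entry into the cell cycle, had 3.58, 3.48 and 3.36 FPKM with fragments and 12.1, 12.7 and 11.6 FPKM without (difference -1.55, SE 0.0808, limma adjusted p = 9.13e-09). Separation of the libraries was again a condition of the choice. Further large falls were Emilin2 (-1.87), Olfm1 (-1.83), Clec12a (-1.79), Clec4a3 (-1.78), Ms4a8a (-1.68) and the fatty acid elongase gene Elovl6 (-1.58).

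A pair of falls in this set rested on uneven libraries. Pram1, an adaptor protein gene, had 0.212, 3.09 and 2.27 FPKM in fragment libraries, the first far below the other fragment libraries, and 9.12, 8.6 and 8.39 FPKM in untreated libraries (difference -1.94, SE 0.326, limma adjusted p = 3.94e-04). Evi2, a transmembrane protein gene, had 3.28, 3.05 and 2.79 FPKM with fragments and 5.13, 27.3 and 9.05 FPKM without, the second untreated library standing far above the other untreated libraries (difference -1.58, SE 0.532, limma adjusted p = 0.0324). The Evi2 call was lost on leaving out any of the 6 libraries but untreated library 1.

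**Figure D2:**
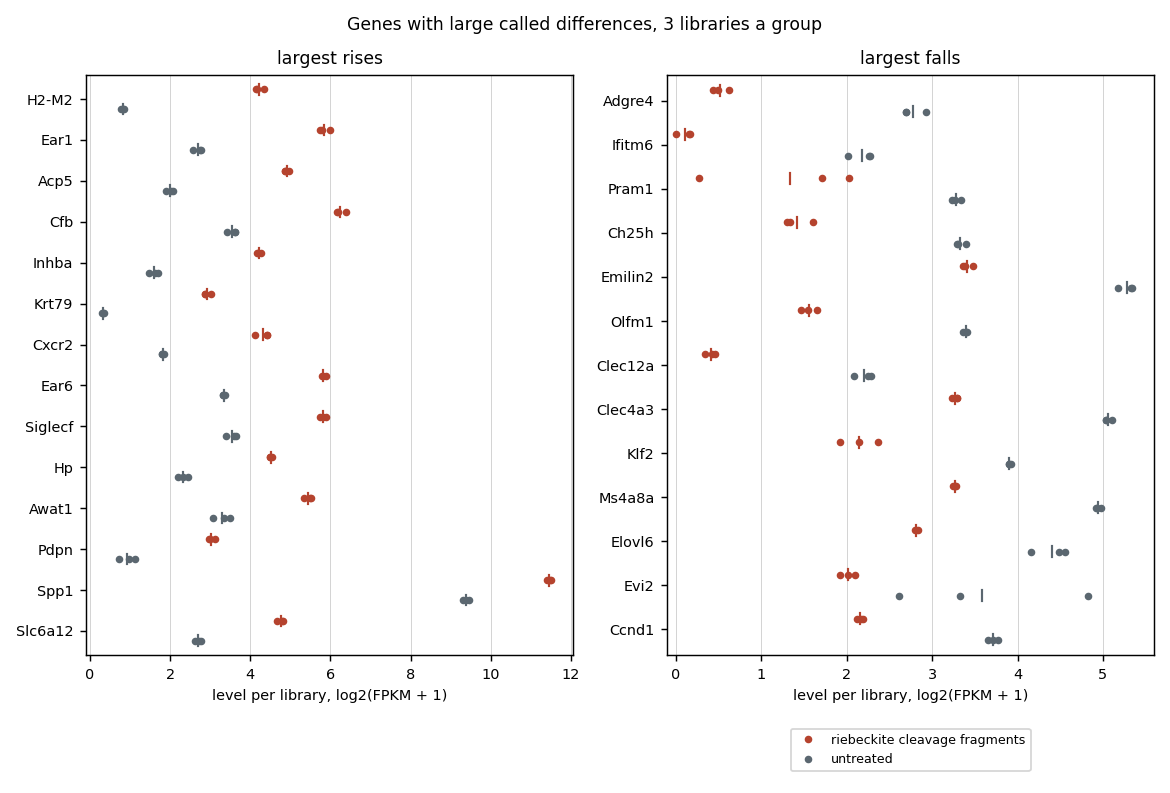
Levels of 14 of the 15 genes with the largest rises and 13 of the 15 with the largest falls (horizontal axis, log2(FPKM + 1)), red points for the 3 riebeckite fragment libraries and grey points for the 3 untreated libraries, short lines for the group means. Groups do not overlap in any row, which was a condition of the choice, and Pram1 and Evi2 show the widest spread within a group.

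Markers of alveolar macrophages mostly rose. Of 35 markers tested 24 rose and 5 fell, with a median of 0.43 against -0.04 over all genes, and with 24 or 25 rises under either rescaling. Like the other lists, this one was chosen with earlier results of these data known, so its median is no independent support. Besides Ear1, Ear6, Krt79 and Siglecf, the oxidised LDL receptor Olr1 had 285, 272 and 284 FPKM in fragment libraries and 107, 110.0 and 110.2 FPKM in untreated libraries (difference 1.35, SE 0.0371, limma adjusted p = 4.71e-11). The GM-CSF receptor chain genes Csf2rb (0.90) and Csf2rb2 (1.09) rose as well, chosen for mention after their values were seen. The 5 falls were Fabp4 (-1.23), Fabp1 (-0.66), Fabp5 (-0.62), the mannose receptor Mrc1 (-0.47) and the chitinase-like gene Chil3 (-0.25). Fabp4, a fatty acid carrier among the best known alveolar markers, was thus lower, at 43.5, 38.4 and 38.9 FPKM with fragments and 97.4, 93.8 and 95.8 FPKM without. The 3 fatty acid binding protein genes of the list were all lower.

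Markers of other cell types were few. Among markers of other macrophages and monocytes, 2 of 12 lines (11 symbols) rose and 5 fell, with Cd14, a lipopolysaccharide co-receptor, at 0.67 and Fn1, fibronectin, at -1.20, and with 1 rise without untreated library 2 or 3. Their sum was 217.7 to 220.8 FPKM in fragment libraries and 210.5 to 221.6 FPKM in untreated libraries. Of 18 neutrophil markers listed, 3 were analysed and all 3 rose: Cxcr2 (16.4, 20.2 and 20.4 FPKM with fragments and 2.45, 2.61 and 2.46 FPKM without), S100a8 (52.4, 51.8 and 50.6 FPKM with fragments and 31.3, 26.5 and 25.7 FPKM without) and the collagenase gene Mmp8 (3.95, 3.95 and 4.12 FPKM with fragments and 1.34, 1.98 and 2.61 FPKM without). Their sum was 72.8 to 76.0 FPKM with fragments and 30.8 to 35.1 FPKM without, and the other 15, among them the granule genes Elane, Mpo and Ltf, were not analysed here. Dendritic cell markers numbered 3, with Clec9a (0.66) and Ccl22 (0.38) higher and Batf3 (-0.33) lower, the last not called without fragment library 3 or untreated library 1 or 2, and summed to 17.1 to 18.9 FPKM with fragments and 11.6 to 14.4 FPKM without. Single markers of erythroid cells (Epor, 0.52), hepatocytes (Trf, 0.30) and epithelium (Cdh1, -0.91) were called, and Scgb1a1 was not (-0.12, limma adjusted p = 0.623). The part of other cells in the results was not tested.

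Phagocytic and scavenger receptors rose in 10 and fell in 5 of the 19 lines tested (18 symbols, median 0.24). There were 9 rises on leaving out any one library, and 3 falls without fragment library 1. Cd36, which takes up oxidised lipoproteins and fatty acids, had 252, 242 and 261 FPKM with fragments and 139, 122 and 123 FPKM without (difference 0.97, SE 0.0614). Itgb5, an integrin subunit that binds apoptotic cells and vitronectin, had 15.2, 16.8 and 18.6 FPKM with fragments and 7.73, 8.2 and 6.996 FPKM without (difference 1.05). Scarb2, a lysosomal membrane receptor, had a smaller rise (0.42). Marco, the scavenger receptor best known for binding silica, differed by 0.18, and Msr1, scavenger receptor A, by -0.31, both called and both named after their values were seen.

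Most called Fc and complement receptors fell: 1 of 10 rose and 5 fell (median -0.53). Fcgr2b, the inhibitory Fc gamma receptor, had 40.1, 49.2 and 47.8 FPKM in fragment libraries and 131, 136 and 138 FPKM in untreated libraries (difference -1.54, SE 0.0854, limma adjusted p = 1.64e-08). Fcgr1, the high-affinity Fc gamma receptor, had 11.8, 14.1 and 10.7 FPKM with fragments and 26.3, 26.5 and 24.4 FPKM without (difference -1.02), and Fcgrt, the neonatal Fc receptor, differed by -0.75. The single rise was Itgax, the integrin CD11c, at 68.4, 66.8 and 69.7 FPKM with fragments and 37.8, 36.9 and 37 FPKM without (difference 0.86). Each of these receptors was separated between groups, the fragment libraries lowest for the Fc receptors and highest for Itgax.

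C-type lectins and Siglecs split. By number, of 14 measured, 5 rose and 7 fell (median -0.28). The activating receptor gene Clec5a had 52.4, 56.8 and 56.1 FPKM with fragments and 21.4, 21.9 and 22.9 FPKM without (difference 1.28), whereas the inhibitory receptor gene Clec4a3 had 8.82, 8.77 and 8.43 FPKM with fragments and 31.7, 33.5 and 31.8 FPKM without (difference -1.78). Clec12a, another inhibitory receptor, had 0.345, 0.376 and 0.273 FPKM with fragments and 3.75, 3.23 and 3.88 FPKM without (difference -1.79).

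Lysosomal genes rose widely and modestly. Among acid hydrolases and their helpers 27 of 46 rose and 7 fell (median 0.25), with 31 and 6 after TMM rescaling and 28 and 9 after quantile normalization. Ctsk, the collagen-degrading protease cathepsin K, was abundant at 1436, 1389 and 1431 FPKM in fragment libraries and 854, 806 and 758 FPKM in untreated libraries (difference 0.82, SE 0.0484). Against the trend, Ctsc, the protease that activates granule serine proteases, had 149.5, 164 and 151 FPKM with fragments and 259.5, 257 and 269.9 FPKM without (difference -0.76). Lysosomal membrane proteins rose in 10 and fell in 1 of the 20 tested, the fall losing its call without fragment library 2 or untreated library 1 or 3. Among the rises were Slc11a1, a metal exporter of the phagosome (5.28, 5.25 and 4.77 FPKM with fragments and 1.91, 1.85 and 1.61 FPKM without, 1.13), Clcn7 (0.50) and Cd63 (0.45).

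Subunits of the vacuolar proton pump rose in 12 and fell in 2 of the 17 tested (median 0.16), with 1 fall without fragment library 2 or untreated library 1 or 2. Atp6v0d2, a subunit prominent in osteoclasts and macrophages, had 909, 905 and 863 FPKM with fragments and 751, 723 and 739 FPKM without (difference 0.27). Atp6ap2, an accessory subunit, had 121, 122 and 122 FPKM with fragments and 101, 100.4 and 95.9 FPKM without (difference 0.29), and Atp6v1g1 differed by 0.19, a call lost under quantile normalization. Atp6v0a1, one of the alternative membrane subunits, fell (34, 33.6 and 33.8 FPKM with fragments and 44.5, 44.1 and 45.8 FPKM without, -0.40). Osteoclast-type genes rose in 6 and fell in 0 of the 8 tested. But 16 were listed, with Calcr, Dcstamp and Ocstamp among those not analysed, and the list shares Acp5, Ctsk, Clcn7, Tcirg1 and Atp6v0d2 with those above. Its own member Oscar, an activating collagen receptor, had 1.47, 1.32 and 1.69 FPKM with fragments and 0.0242, 0.179 and 0.0984 FPKM without (difference 1.18).

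Autophagy genes rose in 14 and fell in 4 of the 31 tested (median 0.10), with 2 falls without untreated library 2 or 3. The receptor gene Tax1bp1 had 45.3, 47.3 and 45.1 FPKM with fragments and 33.3, 33.4 and 34.4 FPKM without (difference 0.43), and Gabarapl1, a ubiquitin-like protein of the autophagosome membrane, had 83.2, 73.3 and 78.5 FPKM with fragments and 58.7, 49 and 49.5 FPKM without (difference 0.57). Calcoco1 (0.41) and Atg12 (0.30) were further rises. Among membrane repair and galectin genes 6 of 22 rose and 4 fell, with Dysf, dysferlin, which patches torn membranes, at 0.66, Anxa1 at 0.50, Anxa4 at 0.22 and Anxa6 at -0.32.

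Lysosomal promoters were read for the element bound by the transcription factor TFEB, the CLEAR core TCACGTGA, searched on both strands in RefSeq promoters of 250 bases before to 50 bases after each gene's start (GRCm38.p6). Of 83 lysosomal and pump genes tested 66 had a promoter in the table, and 10 of these (15.2%) held the core. Counted by promoter, 12.8% of the 78 promoters of these genes held it, against 0.974% of all 32851 promoters. Of the 10 genes 7 rose and 0 fell. Over the whole lists 27 of 46 hydrolases, 10 of 20 membrane proteins and 12 of 17 pump subunits rose, and 7, 1 and 2 fell. A link between core and direction was not tested. Stretches around the core, in capitals, are shown for Gla (chrX:134601193-134601255, minus strand, difference 0.53), whose stretch holds a pair of cores, for Ctsd (chr7:142387893-142387952, minus strand, difference 0.44), cathepsin D, and for Mcoln1 (chr8:3500447-3500506, plus strand, difference 0.21), a calcium channel of the lysosome, because these rising genes carry it.
Gla: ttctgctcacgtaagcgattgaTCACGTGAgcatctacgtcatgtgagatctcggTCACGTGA
Ctsd: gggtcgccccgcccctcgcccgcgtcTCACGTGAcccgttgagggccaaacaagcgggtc
Mcoln1: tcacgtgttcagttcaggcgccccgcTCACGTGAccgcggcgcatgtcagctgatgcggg
A match in letters is a description of the promoter and shows no binding.

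Genes linked to Nrf2 rose in 19 and fell in 2 of the 29 tested (median 0.30), with 19 or 20 rises under either rescaling. Hmox1, which degrades heme, had 190.2, 176 and 181 FPKM in fragment libraries and 88.6, 84.2 and 82 FPKM in untreated libraries (difference 1.09, SE 0.0496, limma adjusted p = 2.75e-09). Pgd, an enzyme of the pentose phosphate route that yields NADPH, had 109, 101 and 101 FPKM with fragments and 74.6, 74.6 and 71.5 FPKM without (difference 0.49), and Cat, catalase, had 95.3, 91.5 and 94.5 FPKM with fragments and 70.6, 69.4 and 72.1 FPKM without (difference 0.40). The 2 falls were Gsr and Nfe2l2. Gsr, glutathione reductase, had 128, 126 and 123 FPKM with fragments and 189, 181 and 183 FPKM without (difference -0.55), and Nfe2l2, the gene of Nrf2 itself, differed by -0.23. The subunit genes of glutathione synthesis, Gclc (0.06, limma adjusted p = 0.292) and Gclm (0.50, limma adjusted p = 0.0932), were not called. Nfe2l2, Gclc and Gclm were named after their values were seen.

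The antioxidant response element core TGACNNNGC, searched on both strands, was present in the promoters of 10 of the 24 Nrf2-linked genes with a promoter (41.7%), and in 36.7% of their 30 promoters, against 12.4% of all promoters. Of these 10 genes 7 rose and 1 fell. Over the whole list 19 of 29 rose and 2 fell, a similar share of rises, and a link between core and direction was not tested. Shown with the core in capitals are Txnrd1, thioredoxin reductase (chr10:82859088-82859147, plus strand, difference 0.58), Mafg, a partner of Nrf2 (chr11:120633736-120633795, minus strand, difference 0.37), and Nfe2l2 (chr2:75704854-75704913, minus strand), the member with the core that fell.
Txnrd1: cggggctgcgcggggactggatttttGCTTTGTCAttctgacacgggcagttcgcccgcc
Mafg: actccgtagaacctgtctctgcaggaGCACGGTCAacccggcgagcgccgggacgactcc
Nfe2l2: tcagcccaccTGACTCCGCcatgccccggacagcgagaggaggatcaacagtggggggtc
The core reads on the strand opposite to the printed one in Txnrd1 and Mafg, and on the printed strand in Nfe2l2. In 40 of all promoters an antioxidant and a CLEAR site overlap.

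Iron handling genes moved in both directions: 6 of 18 rose and 5 fell. Fth1, the ferritin heavy chain, took up 2.79 ± 0.211% of summed FPKM with fragments and 2.35 ± 0.0737% without (SD, n = 3 each), and Ftl1, the light chain, 0.490 ± 0.0805% with fragments and 0.318 ± 0.0140% without. The heme transporter genes Slc48a1 (75.5, 68.9 and 69.7 FPKM with fragments and 52, 50.3 and 51.9 FPKM without, 0.46) and Flvcr2 (58, 59.2 and 63.7 FPKM with fragments and 39.6, 40.2 and 38.1 FPKM without, 0.61) rose. The iron importer Tfrc (-0.34) and the exporter Slc40a1 (-0.48) both fell, and like Fth1 and Ftl1 were named after their values were seen. In the list of metal response genes 3 of 14 rose and 3 fell, near the 15.3% higher and 23.1% lower of all genes. The metallothionein genes Mt2 (503, 445 and 399 FPKM with fragments and 195, 191 and 188 FPKM without, 1.22) and Mt1 (360.4, 339 and 295 FPKM with fragments and 169, 161 and 162 FPKM without, 1.01), whose products bind zinc and copper, were above every untreated library in every fragment library, and the zinc importer Slc39a10 fell (1.89, 1.5 and 1.8 FPKM with fragments and 4.41, 3.94 and 4.32 FPKM without, -0.94).

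Inflammatory cytokine genes rose in 8 and fell in 3 of the 13 tested (median 0.63). Il1f9, an interleukin-36 gene, had 3.22, 3.26 and 2.61 FPKM in fragment libraries and 0.242, 0.144 and 0.0343 FPKM in untreated libraries (difference 1.82, SE 0.0848, limma adjusted p = 3.44e-09). Il1a had 115, 109 and 105 FPKM with fragments and 61.9, 62.9 and 67.6 FPKM without (difference 0.76), and Il1b 26, 24.8 and 24.8 FPKM with fragments and 9.37, 11.1 and 12.1 FPKM without (difference 1.15). Il18, the other cytokine that caspase-1 matures, went the other way, at 51.7, 51.4 and 51.2 FPKM with fragments and 98.1, 103 and 103 FPKM without (difference -0.96, SE 0.0478). Tnf had 9.005, 10.3 and 7.38 FPKM with fragments and 6.19, 7.64 and 7.79 FPKM without, so the groups overlapped (difference 0.26, limma adjusted p = 0.0981).

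Inflammasome genes were mostly lower where called. Of 16 members 1, Il1b, rose and 7 fell (median -0.22), with 2 rises without fragment library 2. Casp1, caspase-1, had 51, 58.2 and 53.4 FPKM with fragments and 68.6, 72.6 and 74.9 FPKM without (difference -0.40), and Gsdmd, gasdermin D, which forms the pyroptotic pore, had 17.8, 16.8 and 16.1 FPKM with fragments and 24.1, 24.6 and 23.6 FPKM without (difference -0.49). The sensor gene Nlrp3 (-0.59) and the adaptor gene Pycard (-0.32), named after their values were seen, also fell.

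Chemokines were called in both directions, with 4 of 11 higher and 4 lower. The rises numbered 2 without fragment library 1 or 2. Ccl17, which attracts T cells, had 46.3, 43.5 and 41.4 FPKM with fragments and 16.1, 15.2 and 16.2 FPKM without (difference 1.41, SE 0.0515). Ccl3 had 157, 142 and 137 FPKM with fragments and 169, 179 and 176 FPKM without (difference -0.27), Ccl9 differed by -0.25 and Ccl22 by 0.38. The neutrophil attractant Cxcl2 had 2.72, 2.64 and 2.02 FPKM with fragments and 1.48, 1.57 and 1.91 FPKM without, a rise just past the threshold (difference 0.38, limma adjusted p = 0.0499).

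NF-kB pathway genes rose in 10 and fell in 2 of the 23 tested (median 0.14), with 1 fall on leaving out any one library but fragment library 2. Nfkb2 had 21, 19.3 and 19.9 FPKM with fragments and 15.1, 15.1 and 16 FPKM without (difference 0.36), and the restraining gene Tnip1 had 35.5, 33 and 33 FPKM with fragments and 23.3, 25.5 and 24 FPKM without (difference 0.46). Tnip3 (0.47) and Sod2, mitochondrial superoxide dismutase (0.32), rose as well. In the Toll-like receptor list 3 of 21 rose and 8 fell. Unc93b1, which carries nucleic-acid-sensing receptors to endosomes, had 57.5, 58.7 and 57.9 FPKM with fragments and 79.3, 78.7 and 76.4 FPKM without (difference -0.42), and Irak4 (-0.41), Cd180 (-0.62) and Tlr13 (-0.26) fell as well.

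Interferon-stimulated genes had a median of -0.33, and 4 of 31 were called lower and 0 higher, a share of falls below the 23.1% of all genes. The falls numbered 2 after TMM rescaling, 14 without fragment library 2 and 2 without any other single library. Mx1 had 0.108, 0.358 and 0.105 FPKM with fragments and 1.71, 1.29 and 1.09 FPKM without (difference -0.99, SE 0.17, limma adjusted p = 4.70e-04). Irf1 had 6.99, 6.89 and 5.53 FPKM with fragments and 9.06, 9.04 and 10.3 FPKM without (difference -0.49). The calls of Gbp7 (-0.49) and Ifi35 (-0.41) were lost on leaving out any library but the second fragment library, and after TMM rescaling. Near-identical members such as the Ifit genes are uncertain.

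Antigen presentation genes rose in 8 and fell in 6 of the 18 tested. Cd74, the class II invariant chain, had 27.9, 23.7 and 25.4 FPKM with fragments and 14.2, 14.7 and 10.8 FPKM without (difference 0.91), whereas H2-DMa, which loads class II peptides, had 22.5, 22.7 and 21.8 FPKM with fragments and 45.3, 44.5 and 43.7 FPKM without (difference -0.96, SE 0.039). Tapbp, tapasin, of the class I pathway, differed by 0.51. Eicosanoid genes were 3 higher and 3 lower of 15, near the 15.3% higher and 23.1% lower of all genes. The prostaglandin receptor Ptger4 (0.47) and leukotriene synthase Ltc4s (0.48) were higher. The leukotriene receptor Cysltr1 (-0.45) and the phospholipase Pla2g4a (-0.17) were lower, the last not called without fragment library 1.

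Matrix proteases and their inhibitors rose in 8 and fell in 1 of the 17 tested. Mmp12, macrophage elastase, had 57.5, 59.7 and 52 FPKM in fragment libraries and 20.03, 21.7 and 23.6 FPKM in untreated libraries (difference 1.33, SE 0.119). Mmp2, a gelatinase, had 5.92, 6.58 and 7.13 FPKM with fragments and 1.91, 2.01 and 1.93 FPKM without (difference 1.35, SE 0.0711), and Mmp19 had 34.3, 34.4 and 36.6 FPKM with fragments and 26.2, 27.3 and 26.4 FPKM without (difference 0.38). Without fragment library 1 or untreated library 3 there were 2 falls. Matricellular and growth factor genes rose in 9 and fell in 5 of the 19 tested, Spp1 and Inhba among the rises. Tgm2, a transglutaminase that crosslinks matrix, had 39, 37 and 39.5 FPKM with fragments and 13.8, 14.4 and 14.3 FPKM without (difference 1.38). Among the members that fell, Emilin2, a matrix glycoprotein gene, had 9.27, 9.42 and 10.2 FPKM with fragments and 35.2, 39 and 39.4 FPKM without (difference -1.87), and Fn1, fibronectin, had 1.81, 2.11 and 2.1 FPKM with fragments and 4.8, 6.4 and 6.59 FPKM without (difference -1.20).

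**Figure D3:**
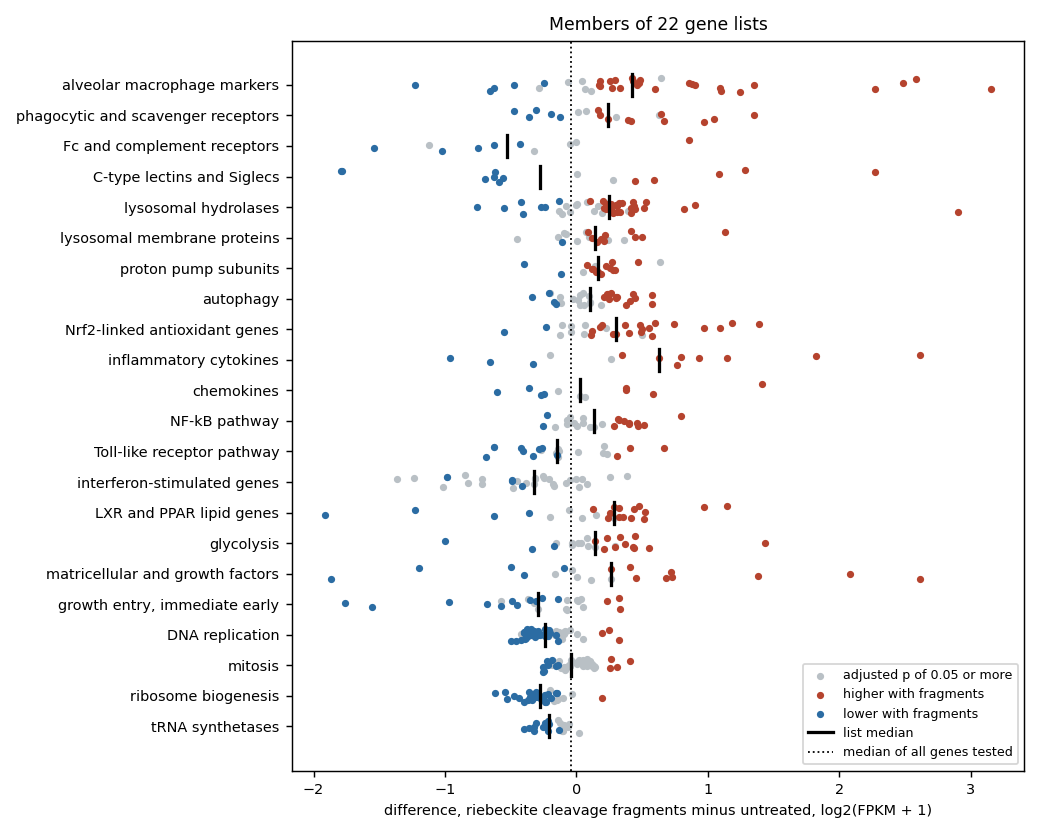
Difference between riebeckite fragments and untreated cells (horizontal axis, log2(FPKM + 1)) for the members of 22 gene lists, one point per gene, red where higher, blue where lower and grey where not called, with a black bar for the list's median and a dotted line for the median of all genes (-0.04). Alveolar, cytokine and Nrf2 lists have medians right of the dotted line, and Fc receptor, growth entry, ribosome biogenesis and interferon lists have medians left of it.

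LXR and PPAR genes were 14 higher and 4 lower of 23 (median 0.29). Abca1, the cholesterol exporter, had 27.6, 27.7 and 27.5 FPKM with fragments and 11.3, 12.1 and 12.3 FPKM without (difference 1.15, SE 0.0503). Ch25h and Fabp4 belong to the same list and fell. Cholesterol synthesis genes were 10 higher and 3 lower of 25, by small amounts such as 0.34 for Mvd, 0.31 for Hmgcs1, 0.34 for Acat2 and 0.34 for Hsd17b7.

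In fatty acid synthesis 9 of 16 rose and 3 fell. The desaturase gene Scd1 had 111, 114 and 119 FPKM with fragments and 86.2, 85.4 and 84.7 FPKM without (difference 0.42), and the desaturase gene Fads1 had 40.8, 41.6 and 43.6 FPKM with fragments and 28.6, 28.2 and 29.2 FPKM without (difference 0.53). Acly, which makes cytosolic acetyl-CoA, had 93.9, 93.9 and 97.4 FPKM with fragments and 139, 148 and 142 FPKM without (difference -0.58). The elongase gene Elovl6 had the largest difference of the list, at 6.16, 6.01 and 5.95 FPKM with fragments and 21.4, 22.5 and 16.9 FPKM without (-1.58).

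Glycolysis genes rose in 11 and fell in 3 of the 23 tested (median 0.14). Slc16a1, a lactate and monocarboxylate transporter, had 26, 23.2 and 25.6 FPKM with fragments and 8.61, 8.94 and 8.15 FPKM without (difference 1.44, SE 0.0478, limma adjusted p = 1.73e-10). Pgam1 had 249, 241 and 251 FPKM with fragments and 183, 182 and 177 FPKM without (difference 0.45), and Hk2, hexokinase, differed by 0.37. The sugar transporter gene Slc2a6 fell, at 4.98, 3.51 and 4.47 FPKM with fragments and 9.33, 9.26 and 10.03 FPKM without (difference -0.997). Of 13 genes of the mitochondrial genome 0 rose and 4 fell (mt-Nd3 -0.28, mt-Nd6 -0.38, mt-Co2 -0.19, mt-Co3 -0.16), with 2 falls after TMM rescaling, when mt-Co2 and mt-Co3 lost their calls, and 9 after quantile normalization. The calls also ended without fragment library 3 (mt-Co2 and mt-Co3), fragment library 2 or untreated library 1 or 2 (mt-Co3), and untreated library 3 (mt-Nd6). Nuclear respiratory chain genes were 1 higher (Uqcrq, 0.28, not called without fragment library 1 or untreated library 3) and 5 lower of 49 (3 without fragment library 1 or 2, and 2 higher without fragment library 3 or untreated library 1), with Ndufs8 at -0.30, Ndufa10 at -0.18 and Sdha at -0.14. Both shares of the nuclear genes were below the 15.3% higher and 23.1% lower of all genes.

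Genes of DNA replication fell in 31 and rose in 3 of the 51 tested (median -0.24), with 27 falls under either rescaling. The helicase genes Mcm6 (19.5, 20.7 and 19.8 FPKM with fragments and 26.9, 27.5 and 27 FPKM without, -0.42), Mcm5 (19.6, 20.2 and 20.5 FPKM with fragments and 24.4, 25.8 and 25.8 FPKM without, -0.32) and Mcm4 (27.7, 27 and 27.5 FPKM with fragments and 34.9, 37 and 37.1 FPKM without, -0.40) each lay below every untreated library. Gins4, a partner of that helicase, differed by -0.39. The E2F sites TTTCCCGC and TTTGGCGC, searched on both strands, occurred in the promoters of 7 (16.7%) and 8 (19%) of the 42 replication genes with a promoter. Counted by promoter, TTTCCCGC was in 13.5% and TTTGGCGC in 15.4% of their 52 promoters, against 1.07% and 0.514% of all promoters. Of the 14 genes with either site 9 fell and 2 rose, and 28 had neither. Over the whole list 31 of 51 fell and 3 rose, a similar share of falls. A link between site and direction was not tested. In all promoters 6 held both sites, and in 0 did these overlap. Stretches are shown for Cdc6, which loads the helicase (chr11:98907987-98908046, plus strand, difference -0.50), and Mcm7 (chr5:138172015-138172074, minus strand, difference -0.28) with TTTCCCGC, and for Mcm6 (chr1:128359782-128359841, minus strand) and Mcm5 (chr8:75109334-75109393, plus strand) with TTTGGCGC, the site in capitals, because these members fell.
Cdc6: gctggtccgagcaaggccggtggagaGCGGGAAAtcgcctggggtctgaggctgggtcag
Mcm7: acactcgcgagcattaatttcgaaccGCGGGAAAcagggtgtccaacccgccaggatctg
Mcm6: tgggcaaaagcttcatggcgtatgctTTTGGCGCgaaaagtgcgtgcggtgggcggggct
Mcm5: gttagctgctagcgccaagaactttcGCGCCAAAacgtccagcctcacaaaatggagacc
The site stands on the printed strand in Mcm6 and on the opposite strand in the others.

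Mitosis genes showed no common direction: 4 of 45 rose and 9 fell, but 8 rose and 6 fell after TMM rescaling and 7 each after quantile normalization, and 5 fell without untreated library 3. As deposited, both shares were below the 15.3% higher and 23.1% lower of all genes. Top2a (-0.26) and Kif11 (-0.22) were lower, and the kinase genes Bub1 (0.26) and Plk1 (0.31) were higher. Growth entry and immediate early genes fell in 11 and rose in 3 of the 25 tested (median -0.29). Besides Ccnd1 and Klf2, Myc, which drives ribosome production, had 14, 14.7 and 13.9 FPKM with fragments and 27, 29.6 and 29.9 FPKM without (difference -0.97, SE 0.0704), and Jun had 10.04, 10.6 and 10.6 FPKM with fragments and 17.1, 17.3 and 17.5 FPKM without (difference -0.68).

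Genes that build ribosomes fell in 25 and rose in 1 of the 32 tested (median -0.28), the rise losing its call without fragment library 1 or 3 or untreated library 3. Nop58, a scaffold of ribosomal RNA methylation, had 3.51, 3.91 and 4.02 FPKM with fragments and 5.97, 6.25 and 6.92 FPKM without (difference -0.62). Ddx21, a helicase of the nucleolus, had 43.3, 43.3 and 44.2 FPKM with fragments and 54.9, 57 and 56.8 FPKM without (difference -0.36), Nop16 differed by -0.55 and Fbl by -0.40. Of the 72 ribosomal proteins tested 13 fell, a share below the 23.1% of all genes, and by little (Rps6 -0.26, Rpl5 -0.26, Rpl10a -0.27, Rpl17 -0.20), and 1 rose, Rps25 (0.41). The falls numbered 7 after TMM rescaling, 35 after quantile normalization, 24 without fragment library 1, 7 without fragment library 3 and 8 without untreated library 1, and the rise of Rps25 lost its call without untreated library 2. Of the cytosolic tRNA synthetase genes 12 of 20 fell and 0 rose, under both rescalings too, with Iars (-0.40), Lars (-0.36), Kars (-0.32) and Gars (-0.21) among them.

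ATF4 and amino acid genes were 5 higher and 7 lower of 22, with the cystine importer Slc7a11 (0.55) and Cebpg (0.30) higher and the arginine importer Slc7a1 (-0.55) and Shmt2 (-0.37) lower. Unfolded protein response genes were 1 higher (Calr, 0.20) and 3 lower of 22, both below the 15.3% and 23.1% of all genes. The falls were led by the regulator Xbp1 at 68.3, 65.6 and 66.7 FPKM with fragments and 109, 106 and 108 FPKM without (-0.68), with Sdf2l1 (-0.35) and Pdia6 (-0.20). Heat shock genes were 2 higher and 5 lower of 17, with Hspa1a (0.55), whose reads overlap those of its near copy Hspa1b, and Hsph1 (-0.32), Chordc1 (-0.30) and Hspd1 (-0.18).

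For p53 targets 12 of 28 rose and 3 fell (median 0.12). Phlda3, which curbs Akt signalling, had 89.5, 78.1 and 81.9 FPKM with fragments and 44.1, 44.3 and 40.8 FPKM without (difference 0.93, SE 0.0546), and Plk3 had 18.6, 16.9 and 14.1 FPKM with fragments and 9.02, 10.6 and 9.56 FPKM without (difference 0.71). Mdm2 rose by 0.38 and the antiproliferative gene Btg2 fell (-0.50). Genes of the Bcl2 family rose in 7 and fell in 3 of the 22 tested. Bcl2a1d (283, 277 and 258 FPKM with fragments and 180.0, 182 and 178 FPKM without, 0.60) and Bcl2a1a (0.43), survival genes with near-identical copies and so of uncertain split, were higher, as was Bcl2l13 (0.47). Mcl1, a short-lived survival protein, was lower, at 184, 190.5 and 188 FPKM with fragments and 249.9, 259.9 and 259 FPKM without (-0.45). Of 13 histone genes 3 rose (Hist1h4h 0.52, Hist3h2a 0.21, Hist1h2bc 0.13) and 1 fell (H2afy -0.21), and each of the 3 rises lost its call without 4 of the 6 libraries, one at a time. Over all genes 15.3% rose and 23.1% fell.

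At 1 FPKM or more in all 3 fragment libraries and below 0.5 FPKM in all 3 untreated libraries stood 20 genes, and the reverse held for 12. All of the 20, and all of the 12 but Zbtb42, passed the test. This largely follows from choosing them by separation in the same libraries, so it is no further support. The 20 included Krt79, Il1f9 and Oscar, and 2 further genes of skin-type epithelium, the keratin gene Krt78 (3.01, 3.37 and 3.76 FPKM with fragments and 0.308, 0.479 and 0.365 FPKM without) and the involucrin gene Ivl (1.53, 1.72 and 1.52 FPKM with fragments and 0.408, 0.321 and 0.415 FPKM without). Uchl1, a ubiquitin hydrolase best known from neurons, had 4.6, 3.62 and 3.66 FPKM with fragments and 0.417, 0.316 and 0.327 FPKM without (difference 1.87). Orm1, an acute-phase glycoprotein, had 1.33, 1.33 and 1.29 FPKM with fragments and was listed at 0 in every untreated library. Lif, a cytokine of the interleukin-6 family, had 1.47, 1.28 and 1.76 FPKM with fragments and 0.193, 0.4003 and 0.329 FPKM without (difference 0.94). Besides Clec12a, Ifitm6 and Mx1, the 12 included the coagulation factor V gene F5 (0.279, 0.301 and 0.324 FPKM with fragments and 1.58, 1.73 and 1.76 FPKM without), the matrix protein gene Nid2 (0.454, 0.413 and 0.492 FPKM with fragments and 1.82, 2.07 and 1.87 FPKM without) and Cd300lg (0.0365, 0 and 0.101 FPKM with fragments and 1.35, 1.71 and 1.61 FPKM without). These genes were chosen for that pattern after their values were seen.

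Against riebeckite asbestos, the fibrous habit of the same mineral, the fragments differed as follows. At 40 µg/cm2 of fragments against 9 µg/cm2 of asbestos, 409 genes were higher (3.85%) and 712 lower (6.71%), 10.6% in all. Libraries did not overlap for 29.0% of genes, and by limma 0 genes were called at least 1 higher and 4 (0.0377%) at least 1 lower, with 2714 of any size at an unadjusted p under 0.05. The direction of the balance turned with the scaling, as 586 were higher and 480 lower after TMM rescaling and 574 and 488 after quantile normalization. The higher genes numbered 271 without fragment library 2 or 3 and 252 without asbestos library 1, and the lower genes 394 without fragment library 2, 392 without asbestos library 1 and 452 without asbestos library 2. The mass doses differ, so the values compare these exposures as given, and levels in untreated cells below come from the same 3 libraries for every exposure.

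The 4 differences of at least 1 were all lower levels with fragments than with asbestos, in Acod1, H2-M2, Slco4a1 and Gcom1. Acod1, which makes itaconate, had 5.77, 5.9 and 5.57 FPKM with fragments, 19.3, 23 and 18.1 FPKM with asbestos and 0.671, 0.79 and 0.669 FPKM in untreated cells (fragments minus asbestos -1.64, SE 0.0713, limma adjusted p = 1.05e-07). H2-M2 had 47.8, 50.8 and 43.6 FPKM with asbestos (fragments minus asbestos -1.38). Lack of overlap between fragment and asbestos libraries was a condition of the choice of the genes named here. Slco4a1, an organic anion transporter gene, differed by -1.20, and Gcom1 by -1.08 (limma adjusted p = 0.0359), a call lost on leaving out any one of the 6 libraries. Among smaller differences, Tnf had 19.7, 17.9 and 14.9 FPKM with asbestos (fragments minus asbestos -0.90, limma adjusted p = 6.45e-04), against the fragment levels given above. The lectin receptor gene Clec4e (-0.90) and Inhba (-0.86) were also lower with fragments than with asbestos. In NF-kB genes 0 of 23 were higher and 16 lower with fragments than with asbestos (median -0.33), and glycolysis genes were 0 higher and 10 lower of 23. The lower glycolysis genes numbered 4 without asbestos library 2, 5 without fragment library 2 and 6 without fragment library 1.

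Higher with fragments than with asbestos were Mmp8 (3.95, 3.95 and 4.12 FPKM with fragments and 1.74, 1.17 and 1.77 FPKM with asbestos, 0.98), Ear1 (34.1, 31 and 37.4 FPKM with asbestos, 0.71) and the orphan receptor gene Gpr34 (5.1, 5.63 and 5.33 FPKM with fragments and 2.63, 2.46 and 3.12 FPKM with asbestos, 0.77). Cytip, a regulator of leukocyte adhesion, was lower than in untreated cells with both, at 40.3, 42.7 and 42.7 FPKM with fragments, 24.3, 26.9 and 29.3 FPKM with asbestos and 59.2, 58.6 and 57.8 FPKM without exposure (fragments minus asbestos 0.63). Grb2 had 61.9, 60.8 and 63.3 FPKM with fragments and 32, 35.3 and 33.4 FPKM with asbestos (difference 0.87), and Rps25 differed by 0.58. Genes of the mitochondrial genome were 12 higher and 0 lower of 13 (median 0.33), with 5 higher after quantile normalization. Alveolar markers were 12 higher and 5 lower of 35, with 7 higher without fragment library 1 or asbestos library 1, and 3 lower without fragment library 2 or asbestos library 1.

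The calls of 3 further genes in this comparison were lost on leaving out single libraries, any of the 6 for Uvrag, any but fragment library 3 for Ube2g2, and fragment library 2 or asbestos library 1 or 3 for Ear10. Ear10 differed by 0.59, Uvrag, an autophagy gene, by 0.69, and Ube2g2, a ubiquitin-conjugating enzyme gene, by -0.94. Gcom1 was listed at 0 in all 3 fragment libraries and at 0.757, 1.07 and 1.58 FPKM with asbestos.

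**Figure D4:**
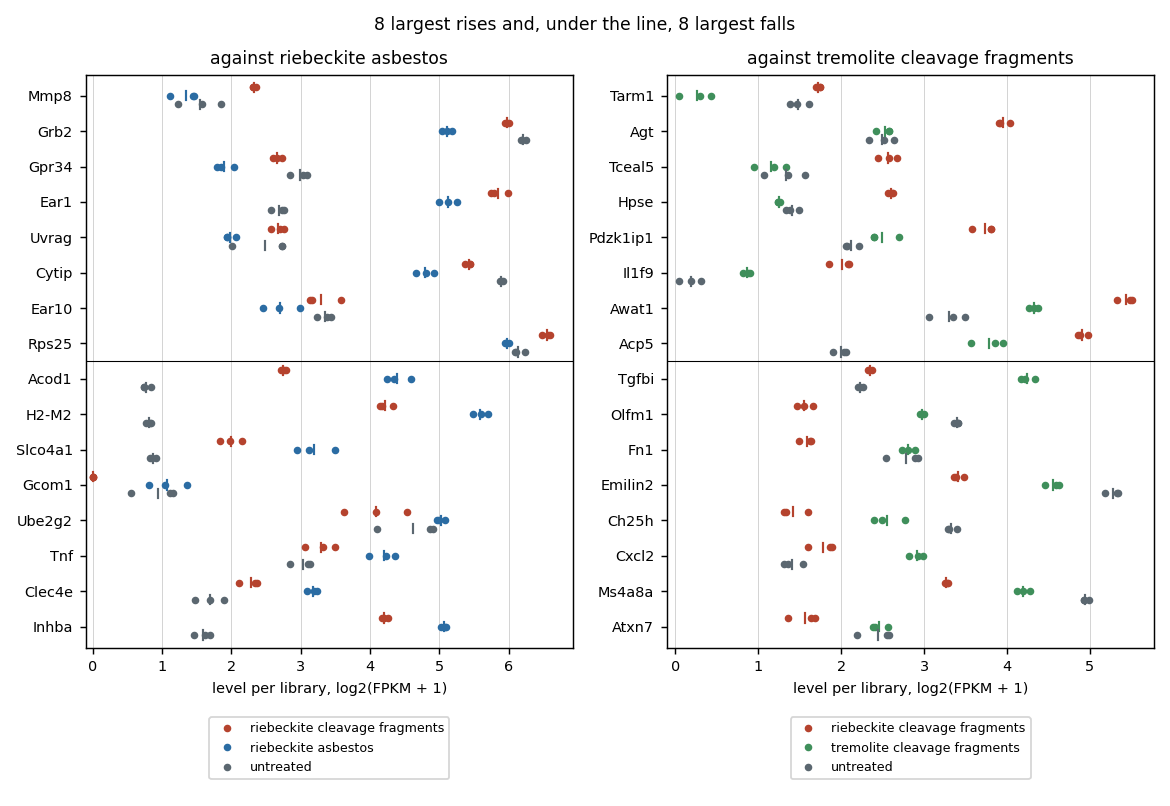
Levels (horizontal axis, log2(FPKM + 1)) of the 8 genes highest and, under the line, the 8 lowest with riebeckite fragments relative to riebeckite asbestos (left panel) and to tremolite cleavage fragments (right panel), one point per library and a short line for each mean. Red points are riebeckite fragments, blue points riebeckite asbestos, green points tremolite fragments and grey points untreated cells. Acod1, H2-M2 and Inhba with riebeckite fragments lie below riebeckite asbestos and above untreated cells, and Tgfbi with riebeckite fragments lies near untreated cells. Lack of overlap between the particles compared was a condition of the choice in every row.

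Against tremolite cleavage fragments, the same habit of a calcium and magnesium amphibole, 564 genes were higher (5.31%) and 638 lower (6.01%) with riebeckite fragments, 11.3% in all. Libraries did not overlap for 32.0% of genes, 12 were at least 1 higher (0.113%) and 7 at least 1 lower (0.0659%). Rises made up 46.9% of calls, 57.5% after TMM rescaling (666 higher, 493 lower) and 50.3% after quantile normalization (592 and 584). The lower genes numbered 328 without riebeckite fragment library 1 and 406, 329 and 346 without tremolite fragment libraries 1, 2 and 3 in turn. The dose was 40 µg/cm2 of riebeckite against 60 µg/cm2 of tremolite fragments.

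The largest called difference was in Tgfbi, a matrix protein induced by TGF-beta, which had 4.02, 4.04 and 4.16 FPKM with riebeckite fragments, 17.6, 17 and 19.2 FPKM with tremolite fragments and 3.69, 3.6 and 3.81 FPKM in untreated cells (riebeckite minus tremolite -1.90, SE 0.0671, limma adjusted p = 8.08e-09). Against untreated cells the riebeckite value was not called (0.11, limma adjusted p = 0.214), although the libraries did not overlap. Further genes were lower with riebeckite than with tremolite fragments. Fn1 had 6.4, 5.99 and 5.65 FPKM with tremolite fragments (-1.22), Olfm1 6.88, 6.72 and 7.02 FPKM (-1.42), Emilin2 23.6, 23 and 20.9 FPKM (-1.14), Ch25h 4.25, 5.8 and 4.62 FPKM (-1.13) and Ms4a8a 16.4, 18.4 and 17.3 FPKM (-0.93). That each lay above all 3 riebeckite libraries was a condition of the choice. Cxcl2 had 6.04, 6.93 and 6.62 FPKM with tremolite fragments (-1.13). The fall of Atxn7 (-0.89) lost its call on leaving out any of the 6 libraries but riebeckite fragment library 3.

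Secreted and enzyme genes were among those higher with riebeckite than with tremolite fragments. Agt, angiotensinogen, had 15.5, 13.9 and 14.1 FPKM with riebeckite fragments, 4.98, 4.34 and 4.99 FPKM with tremolite fragments and 4.73, 5.22 and 4.05 FPKM without exposure (riebeckite minus tremolite 1.43, SE 0.0852, limma adjusted p = 7.67e-07). Hpse, heparanase, which cuts heparan sulfate in matrix, had 5.11, 4.92 and 5.18 FPKM with riebeckite, 1.35, 1.36 and 1.4 FPKM with tremolite and 1.82, 1.61 and 1.52 FPKM without (1.36). Tceal5 had 4.46, 4.97 and 5.38 FPKM with riebeckite, 0.928, 1.52 and 1.28 FPKM with tremolite and 1.56, 1.11 and 1.96 FPKM without (1.41). In these 3 genes every untreated library lay below every riebeckite library. The same held for the tremolite libraries, but that was a condition of the choice.

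Tarm1, an activating receptor gene, had 2.24, 2.34 and 2.34 FPKM with riebeckite, 0.347, 0.234 and 0.0302 FPKM with tremolite and 1.6, 1.76 and 2.06 FPKM without (riebeckite minus tremolite 1.47), so the tremolite libraries were the low ones. Acp5 (1.12), Awat1 (1.12), Pdzk1ip1 (1.23) and Il1f9 (1.14) were higher with riebeckite. Cholesterol synthesis genes were 12 higher and 0 lower of 25 (median 0.23 against -0.02 over all genes), fatty acid synthesis genes 8 and 1 of 16, and lysosomal hydrolases 14 and 2 of 46. Growth entry and immediate early genes were 1 higher and 13 lower of 25 (median -0.25). The lower ones numbered 9 after TMM rescaling and 6 to 10 on leaving out single libraries, with 6 without riebeckite fragment library 3 or tremolite fragment library 2, 7 without tremolite fragment library 1, and 8 without riebeckite fragment library 1 or tremolite fragment library 3. The higher ones numbered 0 on leaving out any one library but tremolite fragment library 2. Of the lysosomal hydrolases 9 were higher without riebeckite fragment library 1 or tremolite fragment library 3, and the lower ones numbered 0 or 1 without any single library but riebeckite fragment library 2.

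At the level of single transcripts 1082 of 22038 rose (4.91%) and 1198 fell (5.44%), 10.3% in all, with riebeckite fragments. Among 143 genes with 2 or more called transcripts, 9 had transcripts called in both directions. Ginm1, a membrane protein gene, was one of them, with Ginm1-204 at 82.7, 79.1 and 78.4 FPKM with fragments and 40.3, 39.6 and 39.9 FPKM without, and Ginm1-202 at 0.00227, 0.0939 and 0.00503 FPKM with fragments and 0.819, 0.374 and 0.766 FPKM without. A transcript's share of the summed FPKM of its gene was tested for 10650 transcripts of 3918 genes, and 6 (0.0563%) in 4 genes were called (limma), with 668 at an unadjusted p under 0.05. The count was 16 without fragment library 3 and 11 without fragment library 2 or untreated library 2. By limma 0 were called with the replicate number as a block or with the groups compared alone in the fit. On the logit scale of the share, 2 of the 6 kept their call and 4 lost it. A transcript can exceed its gene in FPKM, since gene values were closer to the length-weighted sum over all exons (median ratio 1.04) than to the plain sum of transcripts (0.72).

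Pparg encodes the lipid-sensing nuclear receptor that alveolar macrophages depend on. The gene rose to 102, 101 and 104 FPKM in fragment libraries, against 71, 73.3 and 75.2 FPKM in untreated libraries (difference 0.48, SE 0.0444, limma adjusted p = 2.09e-06). Its transcript Pparg-201 stood at 64.7, 74 and 68.5 FPKM with fragments and 20.3, 20.9 and 24.6 FPKM without. That was 39.7, 45 and 41.1% of the summed FPKM of the gene's transcripts with fragments and 18.2, 18.1 and 20.5% without (difference 22.97 percentage points, SE 2.81, limma adjusted p = 0.0164). The shares did not overlap, and the call was lost without untreated library 1. Pparg-204 had 69.2, 64.5 and 70.6 FPKM with fragments and 63.5, 64.2 and 69.2 FPKM without, and Pparg-202 had 28.3, 22.9 and 25.5 FPKM with fragments and 26.4, 27.9 and 23.8 FPKM without, so for both the groups overlapped. Pparg-201 starts 61115 bases downstream of Pparg-202 and codes for 505 residues, against 475 for Pparg-202 and Pparg-204. Its level was above every untreated library also with riebeckite asbestos (61.3, 57.4 and 71.2 FPKM), tremolite asbestos (44.4, 44.6 and 55.6 FPKM) and tremolite fragments (63.8, 63 and 62.9 FPKM).

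Sgk1, a kinase induced by serum and glucocorticoids, rose to 152, 145 and 146 FPKM in fragment libraries, against 51.3, 55.8 and 57.8 FPKM in untreated libraries (difference 1.41, SE 0.0532, limma adjusted p = 4.76e-10). Sgk1-212 had 123, 133 and 129 FPKM with fragments and 18.4, 18.6 and 18 FPKM without, and its share was 31.1, 34.2 and 33.5% with fragments and 16.2, 15.5 and 14.6% without (difference 17.5 points, SE 2.06, limma adjusted p = 0.0164). Sgk1-202, the most abundant of those named, stood at 226, 216 and 216 FPKM with fragments and 79.5, 84.9 and 86.4 FPKM without, while its share was 57.1, 55.6 and 55.9% with fragments and 70.1, 70.6 and 69.9% without (difference -14.0 points, SE 1.99, limma adjusted p = 0.0316). The share of Sgk1-212 stayed called on leaving out any one library, and that of Sgk1-202 lost its call on leaving out any one. The starts of both lie 1667 bases apart, and Sgk1-212 carries an annotated coding part of 89 residues, against 445 for Sgk1-202. Sgk1-203, which codes for 417 residues, starts at the same base as Sgk1-212. It had 6.316, 4.215 and 5.98 FPKM with fragments and 0.7875, 0.7562 and 0.9876 FPKM without.

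Because the called transcripts of Pparg and Sgk1 begin at different places, the 120 bases before each start are shown, from RefSeq on GRCm38.p6, for Pparg-201 (chr6:115421946-115422065, plus strand), Sgk1-212 (chr10:21992103-21992222, plus strand) and Sgk1-202 (chr10:21993770-21993889, plus strand). RefSeq and the deposited table place each of these starts at the same base, and no motif was searched here.
Pparg-201: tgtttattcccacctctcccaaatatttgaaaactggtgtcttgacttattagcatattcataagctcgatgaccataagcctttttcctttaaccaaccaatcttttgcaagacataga
Sgk1-212: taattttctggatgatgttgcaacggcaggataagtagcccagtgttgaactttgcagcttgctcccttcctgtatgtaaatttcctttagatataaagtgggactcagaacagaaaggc
Sgk1-202: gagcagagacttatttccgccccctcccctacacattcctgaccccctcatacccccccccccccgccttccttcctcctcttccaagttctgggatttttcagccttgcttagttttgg

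**Figure D5:**
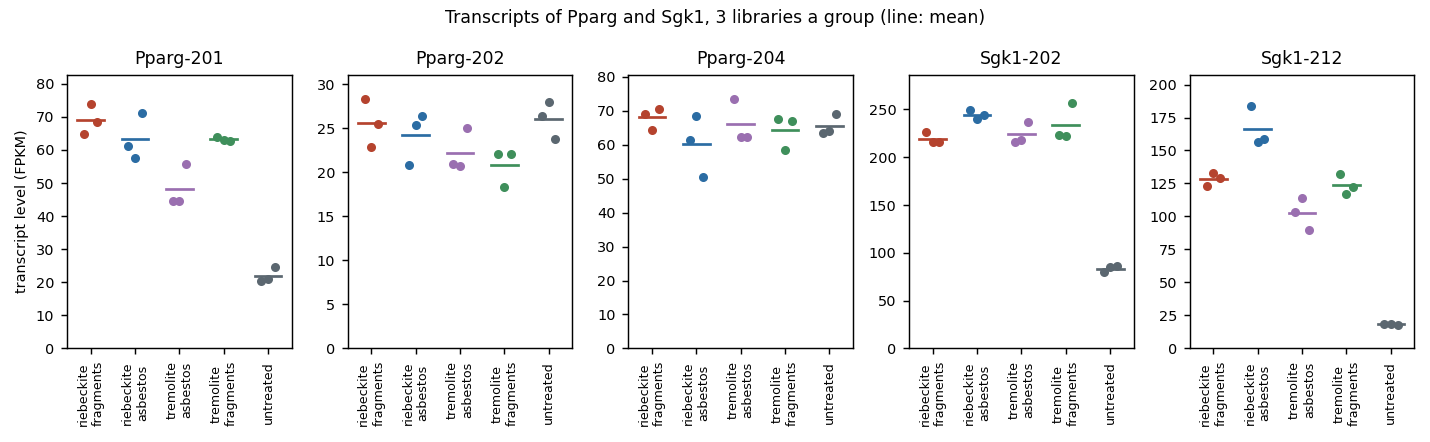
Levels (vertical axis, FPKM, starting at 0, scale differs by panel) of 3 Pparg and 2 Sgk1 transcripts in riebeckite fragments, riebeckite asbestos, tremolite asbestos, tremolite fragments and untreated cells, one point per library and a line for the mean. Pparg-201, Sgk1-212 and Sgk1-202 are lowest in untreated cells, and Pparg-202 and Pparg-204 overlap between riebeckite fragments and untreated cells.

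Nfkb1, which encodes the p50 subunit of NF-kB and its precursor, is the next of the 4 genes. The gene had 10.3, 9.44 and 8.93 FPKM in fragment libraries and 10.1, 10.1 and 10.02 FPKM in untreated libraries (difference -0.07, limma adjusted p = 0.302). The transcript Nfkb1-201 held 51.1, 63.3 and 62% of the summed FPKM of the gene's transcripts with fragments and 0.597, 0.986 and 0.492% without (difference 58.1 points, SE 7.16, limma adjusted p = 0.0164). With other exposures it was uneven, at 23.3, 44.7 and 13% with riebeckite asbestos and 0.452, 0.206 and 18% with tremolite fragments, and the call was lost without untreated library 1 and on the logit scale. Nfkb1-206, which codes for the same number of residues (971), held 13.1, 9.31 and 9.1% with fragments and 40.8, 35.5 and 32.9% without. Nfkb1-203, with an annotated coding part of 533 residues, held the largest share in untreated cells. Its share was 35.8, 27.4 and 28.9% with fragments and 58.6, 63.5 and 66.7% without. Neither Nfkb1-206 nor Nfkb1-203 was called. Tmem216, a gene of the ciliary transition zone, had Tmem216-201 at 72, 85.4 and 77.1% of the summed FPKM of its transcripts with fragments and 43.3, 12.7 and 21.6% without (52.3 points, limma adjusted p = 0.0193) and Tmem216-206 at 8.6, 9.44 and 3.28% with fragments and 34.8, 66.1 and 50.1% without (-43.2 points, limma adjusted p = 0.0291). Both calls ended without fragment library 2 or untreated library 3, and that of Tmem216-206 also without fragment library 1 or 3, and the untreated shares rest on levels of 0.591 to 3.07 FPKM.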

How the data were processed

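The series holds 15 RNA-seq libraries of MPI macrophages in 5 groups of 3, from poly(A) RNA with strand-marked second strands, per the labels' protocols. The submitters' processing notes name cutadapt, HISAT2, StringTie and the build GRCm38, with no versions. The authors deposited FPKM per gene (10653 lines) and per transcript (22795 lines) without read counts, so depth is unknown and a count test was not possible.

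From the deposited FPKM, log2(FPKM + 1) was fitted with limma 3.58.1 (R 4.3.3, all 15 libraries by group, moderated variance with a mean trend), after a filter of 0.5 FPKM in at least 3 libraries that left out 37 genes. Adjusted p-values are Benjamini-Hochberg within each comparison, at 0.05. Fits were checked on simulated data with independent normal noise, a simpler setting than these libraries, so the check does not vouch for single calls. A transcript's share of its gene's summed FPKM was tested where the mean sum was at least 5 FPKM and the mean share 5 to 95%. TMM and quantile scaling, a pseudocount of 0.1, other filters, a replicate block, fits of only the groups compared and leaving out single libraries were tried.

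Genes named are the 15 largest called rises and 15 largest falls with no overlap between libraries and a mean of at least 1 FPKM, 8 each way for the other exposures, and up to 4 members of each of 48 gene lists with the smallest p. Others are said to be named after their values were seen, or are shown for a promoter sequence. The members and lists were chosen with earlier results of these data known. Promoters are RefSeq sequences on GRCm38.p6, matched by symbol. Some genes that meet the rule are not reported here.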

Additional observations from a re-analysis of the deposited data

How the results depend on the processing

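The gene counts against untreated cells stayed within 1.5 times of those reported under every alternative tried but a minimum difference of 1. With that minimum, 131 genes were higher and 58 lower against untreated cells, 0 and 4 against riebeckite asbestos, and 12 and 7 against tremolite fragments. With only the groups compared in the fit, 94 were higher and 181 lower against riebeckite asbestos, 358 and 318 against tremolite fragments, and 711 and 654 transcripts against untreated cells. Transcript shares were called in 3 transcripts at a mean of at least 20 FPKM, and in 0 with the groups compared alone. Leaving out single libraries gave 1425 to 1545 genes higher and 1962 to 2278 lower against untreated cells, 252 to 315 and 392 to 567 against riebeckite asbestos, 376 to 506 and 328 to 522 against tremolite fragments, and 5 to 16 transcript shares. Scgb1a1 (-0.12, not called) ranged from -0.29 without untreated library 2 to 0.017 without fragment library 3, and was 0.016 without untreated library 1. The cause was not tested.

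The replicate numbers were not taken as pairs. Correlations of same-numbered libraries of fragments and untreated cells were 0.0124, -0.00785 and -0.0524, those of riebeckite and tremolite fragments -0.00401, 0.00492 and 0.0479. Those of fragments and riebeckite asbestos were 0.0308, 0.172 and 0.101, where each library correlated best with its own number, library 1 only by 0.0308 against 0.0307, a hint from the data and not from the design. With the replicate number as a block, 1650 genes were higher and 2497 lower against untreated cells, 453 and 738 against riebeckite asbestos, 608 and 707 against tremolite fragments, and 0 transcript shares were called. The missing depth sets no floor for genes listed at 0.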

Other observations

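Some genes with related changes are neighbours in the table, named here after their values were seen. Cxcr1, the interleukin-8 receptor gene beside Cxcr2 on chromosome 1 (chromosome 1, 74191785 to 74194631), had 5.47, 4.93 and 6.24 FPKM with riebeckite fragments and 1.18, 0.942 and 0.984 FPKM without (difference 1.68, SE 0.111, limma adjusted p = 8.41e-08). Every fragment library was above every untreated one.

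On chromosome 19 a run of genes rose. Cyb561a3, a lysosomal ferrireductase gene (chromosome 19, 10577454 to 10588548), had 58.3, 57.5 and 63.8 FPKM with fragments and 16.8, 16 and 15.1 FPKM without (difference 1.84). Tmem138 (chromosome 19, 10570478 to 10577362) had 14.5, 15.2 and 16.6 FPKM with fragments and 5.13, 4.6 and 5.03 FPKM without (difference 1.47), and Tmem216 (chromosome 19, 10533865 to 10556238) had 9.52, 8.28 and 15.8 FPKM with fragments and 1.7, 2.36 and 2.01 FPKM without (difference 1.97). Each was separated between the groups, and reads of such close genes may be split uncertainly.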
